A study of Mus musculus with 16 samples.

Results

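Restriction factors are host proteins that block a step of virus replication inside the cell, and most of them are made at a low level until type I interferon is sensed. Interferon binds its receptor, the kinases JAK1 and TYK2 then act on STAT proteins, and these assemble with IRF9 on the interferon-stimulated response element (ISRE) of target promoters. Cyclic di-guanylate monophosphate (c-di-GMP), a bacterial messenger, can start this chain through STING, the protein encoded by *Tmem173*. The genes described here are 8 genes grouped as antiviral restriction and RNA-editing factors: *Bst2*, *Apobec3*, *Samhd1*, *Zc3hav1*, *Eif2ak2*, *Adar*, *Rtp4* and *Xaf1*. They were chosen by gene name and are 8 of the 23356 genes in the deposited table.

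RNA was sequenced from bone marrow-derived dendritic cells (BMDCs) of mice on the C57BL/6 background, grown with GM-CSF and IL-4. The 4 genotypes were wild-type (WT), *Tmem173*-/-, which lacks STING, *Irf1*-/-, and *Irf3/7*-/-, a double knockout of *Irf3* and *Irf7*. The cells of each genotype were left without treatment (NT) or given c-di-GMP (CDG) at 25 µg/ml, and were taken at 18 h. The labels list 16 samples, 2 in each of 8 conditions, and do not say whether the 2 came from separate cultures or animals. The paper describes the knockout BMDCs as grown from knockout mice. Whether every cell carried the deletion was not checked here beyond the levels of the targeted genes given below. The paper gives an age range for its mice as a whole, and no age per sample.

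The authors combined the 2 samples of each condition in Cuffdiff, so each gene has a single FPKM per condition (fragments counted on a gene, relative to its transcript length and to all mapped fragments) with a confidence interval. The spread between replicates is therefore not known, no p-value over replicates could be computed, and n is 1 pooled value throughout. The read depth behind an FPKM is unknown. Precision was read from the interval: the mean distance from the FPKM to its bounds was 22.7% to 36% of the FPKM over the 8 genes and 8 conditions. A call of higher or lower required that log2(FPKM + 0.1) differed by more than 1, that both intervals lay apart, that at least 1 of the 2 conditions reached 1 FPKM, and that the status was OK in both. All 8 genes met the conditions for a comparison in each of the 11 comparisons.

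The targeted genes were read as a check of the labels. *Tmem173* was at 8.97 and 7.49 FPKM in *Tmem173*-/- BMDCs and at 77 FPKM or more in the other conditions. *Irf1* was at 25.9 FPKM in untreated and 116 FPKM in treated *Irf1*-/- BMDCs, against 149 and 245 FPKM in WT, and these values are for the whole gene. *Irf7* was at 1.07 and 4.97 FPKM in *Irf3/7*-/- BMDCs, against 15.2 and 687 FPKM in WT. Low levels of both were not particular to these knockouts. In untreated and treated *Tmem173*-/- BMDCs *Irf1* was at 24.1 and 23.3 FPKM and *Irf7* at 3.17 and 3.37 FPKM. *Irf3* was at 7.74 FPKM in untreated *Irf3/7*-/- BMDCs and 19.9 FPKM in WT. In the treated cells the knockout had 20.2 FPKM and WT had 15.8 FPKM, so *Irf3* went against the label of the treated condition, which is called "labelled *Irf3/7*-/-" below. Of 7 dendritic cell markers, 6 or 7 were at 1 FPKM or more in every condition, and their summed FPKM was 4559 to 7816. *Cd209a* was at 3.1 FPKM or less in all conditions and at 0 in treated WT BMDCs.

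Markers of other cells that bone marrow cultures can hold differed between the genotypes. The summed FPKM of 5 neutrophil and precursor genes was 1316 and 1045 in untreated and treated *Tmem173*-/- BMDCs and 70.9 to 157 in the other conditions. The sum of 7 T and NK cell genes was 439 and 391 in WT, 453 and 1138 in *Irf3/7*-/-, 12.7 and 13.9 in *Irf1*-/-, and 2.79 and 2.3 in *Tmem173*-/- BMDCs. *Gzma*, which made up most of that sum in WT, was listed at 0 in both *Tmem173*-/- conditions, and *Ncr1* was listed at 0 in untreated *Tmem173*-/- and in both *Irf1*-/- conditions. The sum of 5 macrophage genes was 251 and 264 in *Tmem173*-/- and 72 to 126 elsewhere. The sum of 4 B cell genes was 3.34 to 10.3, and that of 5 basophil and mast cell genes was 164 and 251 in *Irf3/7*-/- and 54 to 88.2 elsewhere. In bulk RNA, fewer cells of a type and less RNA per cell cannot be told apart.

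Because these genes are known as interferon targets, the start of each gene was searched for the ISRE core. RefSeq windows (GRCm38.p6, 250 bases before to 50 bases after a start) were found for 7 of the 8 genes, all but *Rtp4*. The ISRE core GAAANNGAAA was searched on both strands and was found in the windows of 3 of these 7 genes. Among all 27025 genes with a window, 3.99% held it. The stretches of 60 bases around these matches are shown because they match the core of the element that the interferon-activated complex is known to read. The matched ISRE core is in capitals.
Bst2, chr8:71537565-71537624, minus strand: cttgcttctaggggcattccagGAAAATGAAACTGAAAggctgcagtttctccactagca
Apobec3, chr15:79892243-79892302, plus strand: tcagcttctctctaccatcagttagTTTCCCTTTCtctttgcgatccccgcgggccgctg
Eif2ak2, chr17:78882523-78882582, minus strand: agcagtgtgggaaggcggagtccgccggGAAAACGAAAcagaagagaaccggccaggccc
Each stretch is written in the direction of its gene. In *Bst2* the capitals hold 2 overlapping matches, which begin 130 and 124 bases before the start. The *Apobec3* match lies on the opposite strand and begins 140 bases before the start of the first of its 2 windows. The *Eif2ak2* match begins 18 bases after the start. The STAT dimer site GAS, searched as TTCNNNGAA on both strands, was found in windows of *Bst2*, where it overlaps the first ISRE match, and of *Samhd1*, *Eif2ak2* and *Adar*, which is 4 of the 7 genes against 9.55% of all genes with a window. Neither pattern was found in any window of *Zc3hav1* or *Xaf1*. The ISRE pattern fixed 2 bases between its GAAA repeats, so other spacings were not counted. Windows of *Xaf1* and *Adar* hold gaaacgaaa, which has a shorter spacing, so the count does not show that these genes lack an ISRE. A match describes the sequence and is not a binding site measured in these cells.

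In WT BMDCs, c-di-GMP raised 6 of the 8 genes. *Bst2*, *Xaf1* and *Rtp4* rose between 5.67-fold and 8.08-fold, *Zc3hav1*, *Eif2ak2* and *Adar* rose between 2.11-fold and 2.75-fold, and *Samhd1* and *Apobec3* were not called. Of the 11201 genes tested in this comparison, 10.5% were called higher. The median log2 change was 1.32 for the 8 genes and 0.00 for all genes tested. In *Tmem173*-/- BMDCs none of the 8 was called with c-di-GMP, where 0.046% of all genes tested were called higher and 0.0092% lower. In *Irf1*-/- and labelled *Irf3/7*-/- BMDCs 7 and 6 were called higher, against 9.67% and 10.2% of all genes tested.

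**Figure D1:**
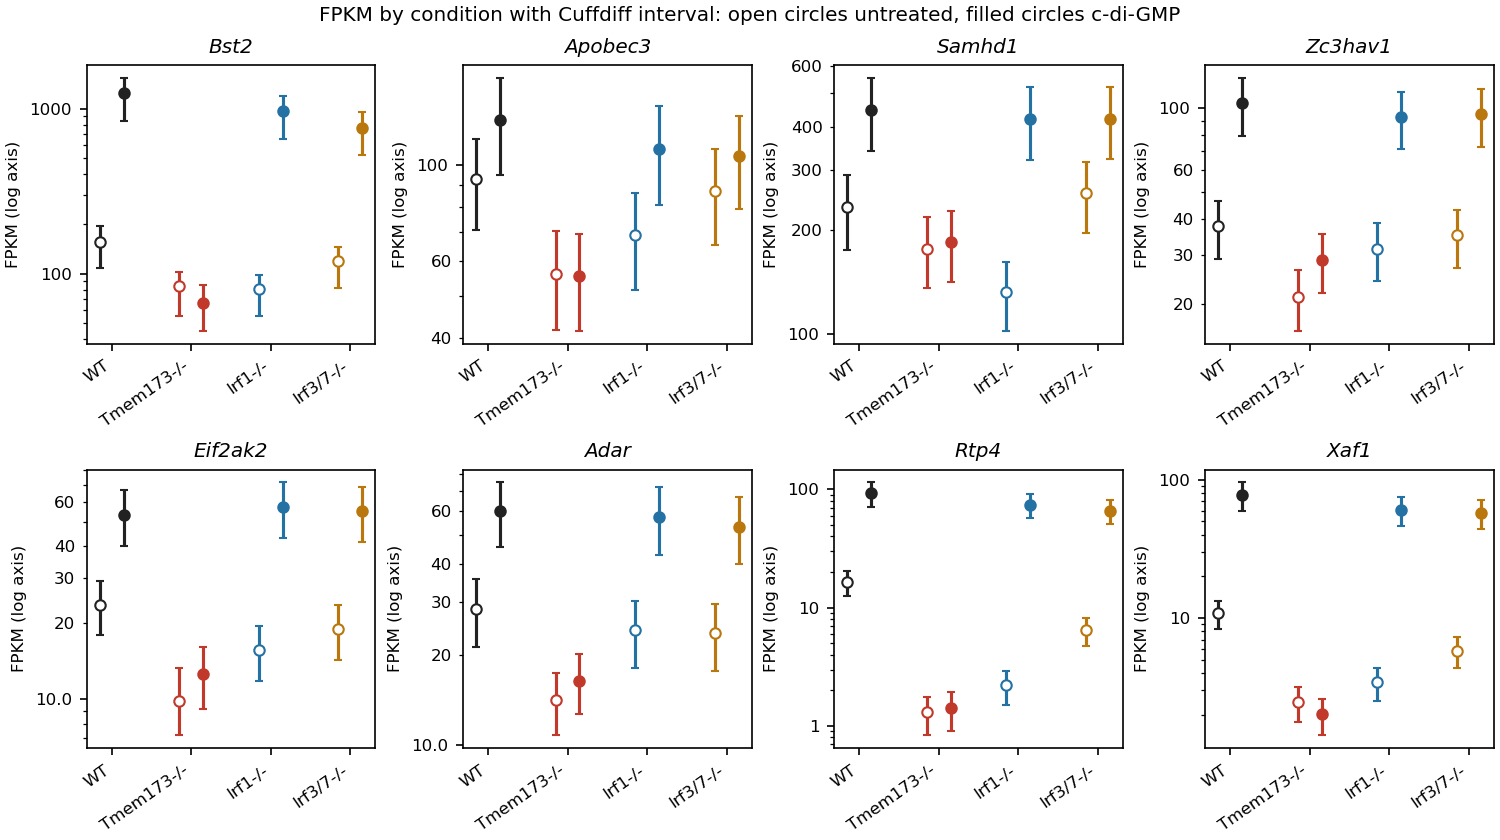
FPKM of the 8 genes (log axis, a different range in each panel) in the 4 genotypes, with the authors' confidence interval as a bar; open circles are untreated and filled circles c-di-GMP-treated BMDCs. For every gene the filled circles of WT, Irf1-/- and labelled Irf3/7-/- have overlapping bars, and both Tmem173-/- circles lie below them, down to 1.3 FPKM for Rtp4.

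*Bst2* encodes tetherin, a membrane protein that holds budding virus particles at the cell surface (chromosome 8, 71534262 to 71537437, minus strand). It was at 155 FPKM (authors' interval, 109 to 194) in untreated and 1253 FPKM (847 to 1537) in treated WT BMDCs, and at 84.7 and 67 FPKM in *Tmem173*-/- BMDCs. In *Irf1*-/- BMDCs it went from 81.4 to 964 FPKM (660 to 1193), and in labelled *Irf3/7*-/- BMDCs from 119 to 763 FPKM (528 to 951). The 3 treated conditions other than *Tmem173*-/- were high, with intervals that overlap one another and lie above those of the other 5 conditions. The log2 change was 3.01 in WT, and the bounds of the intervals allow 2.12 to 3.81. *Bst2* had the largest WT change of the 8 and, at 1253 FPKM, the highest level of the 8 after treatment, where *Samhd1* followed at 446 FPKM.

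*Samhd1* encodes a hydrolase that breaks down the deoxynucleotides that reverse transcription needs (chromosome 2, 157097529 to 157135222, minus strand). It was at 233 FPKM (175 to 290) in untreated WT BMDCs, and it reached 446 FPKM (339 to 554) after c-di-GMP. These intervals did not overlap, but the log2 change of 0.94 was below the 2-fold threshold, so no call was made. In *Irf1*-/- BMDCs *Samhd1* was called higher, at 420 FPKM (320 to 520) against 132 FPKM (102 to 162) untreated, and its log2 change was 1.67. In labelled *Irf3/7*-/- BMDCs it was at 256 and 422 FPKM, and the log2 change of 0.72 was not called, while in *Tmem173*-/- BMDCs it was at 177 and 185 FPKM. The 3 treated levels of 420 to 446 FPKM had overlapping intervals, so the larger change in *Irf1*-/- BMDCs went with a lower untreated level.

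*Apobec3* encodes a cytidine deaminase that mutates retroviral DNA (chromosome 15, 79889532 to 79908429, plus strand). Its level was 93 and 127 FPKM in untreated and treated WT BMDCs, 68.9 and 109 FPKM in *Irf1*-/-, 87.2 and 105 FPKM in labelled *Irf3/7*-/-, and 56 and 55.4 FPKM in *Tmem173*-/- BMDCs. When the 8 conditions were placed in order of level, no pair of neighbours had separate intervals. The within-genotype log2 changes of 0.45, 0.66 and 0.26 outside *Tmem173*-/- were not called. *Apobec3* was thus the least changed of the 8 in WT, and its first window holds the ISRE core shown above. Its locus overlaps *D730005E14Rik*, at 2.37 to 5.35 FPKM, and *Cbx7* on the other strand.

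*Zc3hav1* encodes ZAP, a zinc finger protein that binds CpG-rich viral RNA and brings it to decay (chromosome 6, 38310497 to 38354603, minus strand). It was at 37.8 FPKM (29 to 46.5) and 104 FPKM (79.6 to 128) in untreated and treated WT BMDCs. The values were 31.5 and 92.6 FPKM in *Irf1*-/- BMDCs and 35.1 and 95.1 FPKM in labelled *Irf3/7*-/- BMDCs. The log2 changes in these 3 genotypes lay between 1.44 and 1.55, the narrowest range of the 8 genes. In *Tmem173*-/- BMDCs *Zc3hav1* was at 21.1 FPKM (16 to 26.4) and 28.7 FPKM (21.9 to 35.5). That log2 change of 0.44 was not called, and 92.7% of the genes tested there had a lower value.

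*Eif2ak2* encodes PKR, a kinase that is switched on by double-stranded RNA and halts translation through eIF2α (chromosome 17, 78852550 to 78882572, minus strand). It was at 23.5 and 53.3 FPKM in untreated and treated WT BMDCs, 15.6 and 57.4 FPKM in *Irf1*-/-, 18.9 and 55.2 FPKM in labelled *Irf3/7*-/-, and 9.81 and 12.5 FPKM in *Tmem173*-/- BMDCs. The treated levels of the first 3 genotypes were alike within their intervals, with WT the lowest of them. The log2 change was 1.18 in WT (0.45 to 1.89 by the bounds), 1.87 in *Irf1*-/- and 1.54 in labelled *Irf3/7*-/- BMDCs, all called. The change of 0.35 in *Tmem173*-/- BMDCs was not called.

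*Adar* encodes ADAR1, which edits adenosine to inosine in double-stranded RNA and so keeps the cell's own RNA from being sensed as viral (chromosome 3, 89715022 to 89764632, plus strand). Its level was 28.5 FPKM (21.3 to 35.7) and 60.3 FPKM (45.5 to 75) in untreated and treated WT BMDCs, a log2 change of 1.08 that is just over the threshold. In *Irf1*-/- BMDCs it was at 24.1 and 57.5 FPKM, in labelled *Irf3/7*-/- BMDCs at 23.6 and 53.4 FPKM, and in *Tmem173*-/- BMDCs at 14.1 and 16.4 FPKM. It was called higher in the first 3 genotypes and not in the last. The gene makes a long isoform known to be induced by interferon and a shorter constitutive one, and a value for the whole gene does not separate them. The table's locus also covers *Chrnb2*, on the other strand, which was at 0.704 FPKM or less.

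*Rtp4*, a receptor transporter protein with a known antiviral role (chromosome 16, 23609919 to 23614222, plus strand), varied the most of the 8. It was at 16.5 FPKM (12.5 to 20.4) and 93.4 FPKM (71.6 to 115) in untreated and treated WT BMDCs, and at 1.3 FPKM (0.834 to 1.77) and 1.42 FPKM (0.91 to 1.92) in *Tmem173*-/- BMDCs. In *Irf1*-/- BMDCs it went from 2.22 FPKM (1.49 to 2.93) to 73.7 FPKM (56.9 to 90.6), and in labelled *Irf3/7*-/- BMDCs from 6.5 FPKM (4.78 to 8.22) to 66.1 FPKM (50.6 to 81.4). The untreated levels therefore stood apart from one another in WT, *Irf3/7*-/- and *Irf1*-/- BMDCs, in falling order, while the 3 treated levels overlapped. The log2 changes were 2.50 in WT, 4.99 in *Irf1*-/- and 3.32 in labelled *Irf3/7*-/- BMDCs. In GENCODE a longer model of *Rtp4* overlaps *Masp1* on the other strand.

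*Xaf1* encodes a partner of XIAP that favours apoptosis (chromosome 11, 72301629 to 72313733, plus strand), and its pattern was close to that of *Rtp4*. It was at 10.9 FPKM (8.3 to 13.4) and 78 FPKM (59.7 to 96.2) in untreated and treated WT BMDCs, and at 2.47 and 2.02 FPKM in *Tmem173*-/- BMDCs. The *Irf1*-/- BMDCs had 3.46 FPKM (2.53 to 4.39) without and 60.8 FPKM (46.5 to 75) with c-di-GMP, against 5.8 FPKM (4.36 to 7.24) and 58 FPKM (44.3 to 71.6) in labelled *Irf3/7*-/- BMDCs. The untreated knockouts all lay below untreated WT with separate intervals. The log2 changes of 2.83, 4.10 and 3.30 in WT, *Irf1*-/- and labelled *Irf3/7*-/- BMDCs were called.

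Within the knockouts, the rise was then set against the rise in WT. In *Tmem173*-/- BMDCs 0 of the 8 genes were called higher, where 0.046% of all genes tested, 5 of 10867, were. In *Irf1*-/- BMDCs 7 of 8 were called higher, against 9.67% of all genes, with a median log2 change of 1.77. In labelled *Irf3/7*-/- BMDCs 6 of 8 were called higher, against 10.2% of all genes, with a median of 1.49. For the 6 genes called in WT, the log2 change within a knockout was divided by that in WT to give the share of the induction kept. This share had a median of 131% (107% to 200%) in *Irf1*-/-, 113% (89.1% to 133%) in labelled *Irf3/7*-/- and 12.8% (-11.2% to 30.1%) in *Tmem173*-/- BMDCs. Over all 1175 genes called higher in WT the medians were 93.4%, 84.2% and 1.54%. *Rtp4*, at 200%, and *Eif2ak2*, at 159%, kept the largest shares in *Irf1*-/- BMDCs. A share depends on the untreated level too, so a larger share is not a higher treated level. Against WT, the median log2 difference of the 8 genes was -0.70 untreated and -0.19 treated in *Irf1*-/- BMDCs. It was -0.29 in untreated *Irf3/7*-/- and -0.23 in labelled *Irf3/7*-/- BMDCs. *Rtp4* was at 2.22 FPKM in untreated *Irf1*-/- and 16.5 FPKM in WT BMDCs, and at 73.7 and 93.4 FPKM after treatment. *Eif2ak2* was at 15.6 and 23.5 FPKM, then 57.4 and 53.3 FPKM. Between untreated and treated cells the T and NK cell marker sum went from 439 to 391 in WT, from 12.7 to 13.9 in *Irf1*-/- and from 453 to 1138 in labelled *Irf3/7*-/- BMDCs, and its part in the changes was not tested.

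**Figure D2:**
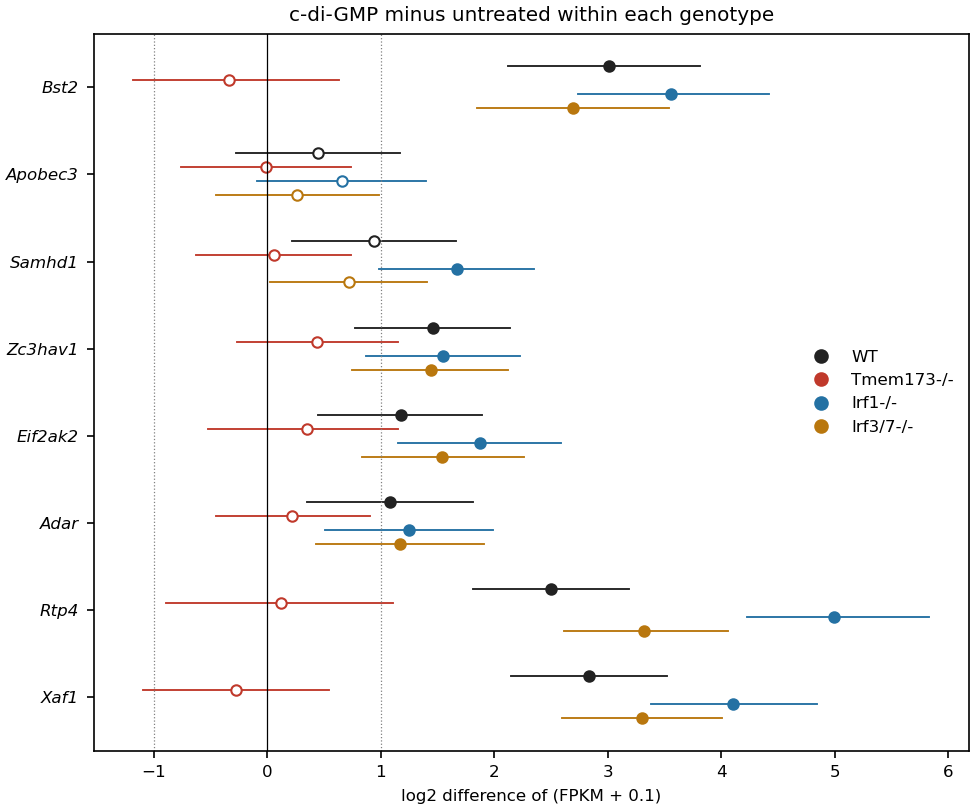
Log2 difference of (FPKM + 0.1) between c-di-GMP-treated and untreated BMDCs for the 8 genes in the 4 genotypes. Filled points were called, lines span what the bounds of both intervals allow, and dotted lines mark the 2-fold threshold; Tmem173-/- points lie near 0 (-0.34 to 0.44), and the Irf1-/- points of Rtp4 and Xaf1 lie to the right of WT at 4.99 and 4.10.

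After c-di-GMP, all 8 genes were lower in *Tmem173*-/- than in WT BMDCs. The fall was 65.9-fold for *Rtp4*, 38.7-fold for *Xaf1* and 18.7-fold for *Bst2*, between 3.62-fold and 4.25-fold for *Zc3hav1*, *Adar* and *Eif2ak2*, and 2.29-fold and 2.42-fold for *Apobec3* and *Samhd1*. The last pair was therefore called here without having been called in the WT response. Of all genes tested, 13.5% were called lower. The median log2 difference of the 8 was -1.97, and that of all genes tested was 0.02. The neutrophil, macrophage and T and NK cell marker sums given above also differed between these conditions, and their part in the result was not tested.

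Treated *Irf1*-/- and treated WT BMDCs gave no call for any of the 8 genes, where 2.65% of all genes were called higher and 4.91% lower. The log2 differences lay between -0.38 for *Bst2* and 0.11 for *Eif2ak2*. Labelled *Irf3/7*-/- BMDCs also gave none, where 4.61% of all genes were called higher and 2.69% lower. These differences lay between -0.72 for *Bst2* and 0.05 for *Eif2ak2*, and 7 of the 8 were below 0 in each of these comparisons, which share the treated WT samples. The bounds still allow a log2 difference below -1 for *Bst2*, *Rtp4* and *Xaf1* in both, down to -1.22, -1.02 and -1.05 in *Irf1*-/- and -1.54, -1.18 and -1.12 in labelled *Irf3/7*-/- BMDCs. Set directly against each other, treated *Irf1*-/- and labelled *Irf3/7*-/- BMDCs gave 0 calls among the 8, with log2 differences of -0.04 to 0.34, where 3.22% of all genes were called higher and 6.62% lower in *Irf1*-/-.

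The untreated cells already differed. In untreated *Tmem173*-/- BMDCs, *Rtp4* was 12.7-fold lower than in untreated WT, *Xaf1* 4.4-fold, *Eif2ak2* 2.4-fold and *Adar* 2.03-fold, and these 4 of 8 were called lower, against 5.95% of all genes. *Bst2*, *Zc3hav1* and *Apobec3* had log2 differences of -0.87, -0.83 and -0.73 with separate intervals, short of the 2-fold threshold, and *Samhd1* had -0.39 with overlapping intervals. The *Adar* call rests on a log2 difference of -1.01, and with 1 FPKM in place of 0.1 FPKM added to each value it was -0.97 and was lost. All 8 differences were below 0, with a median of -0.94.

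In untreated *Irf1*-/- BMDCs, *Rtp4* was 7.41-fold and *Xaf1* 3.14-fold lower than in WT, 2 of 8 against 3.52% of all genes called lower. *Bst2* and *Samhd1*, with log2 differences of -0.93 and -0.82, had separate intervals and were not called. *Samhd1* was thus lower in *Irf1*-/- than in *Tmem173*-/- BMDCs, at 132 and 177 FPKM, although these intervals overlap. In untreated *Irf3/7*-/- BMDCs only *Rtp4* was called of the 8, 2.53-fold lower, where 0.863% of all genes were called lower. *Xaf1* had a log2 difference of -0.89 with separate intervals. Beside these untreated values, the T and NK cell marker sum was 439 in WT, 453 in *Irf3/7*-/-, 12.7 in *Irf1*-/- and 2.79 in *Tmem173*-/- BMDCs. The basophil and mast cell sum was 67.2 in WT and 164 in *Irf3/7*-/- BMDCs. In *Tmem173*-/- BMDCs the neutrophil sum was 1316 against 134 in WT, and the macrophage sum 251 against 96.2. The part of these cells in the lower values was not tested.

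**Figure D3:**
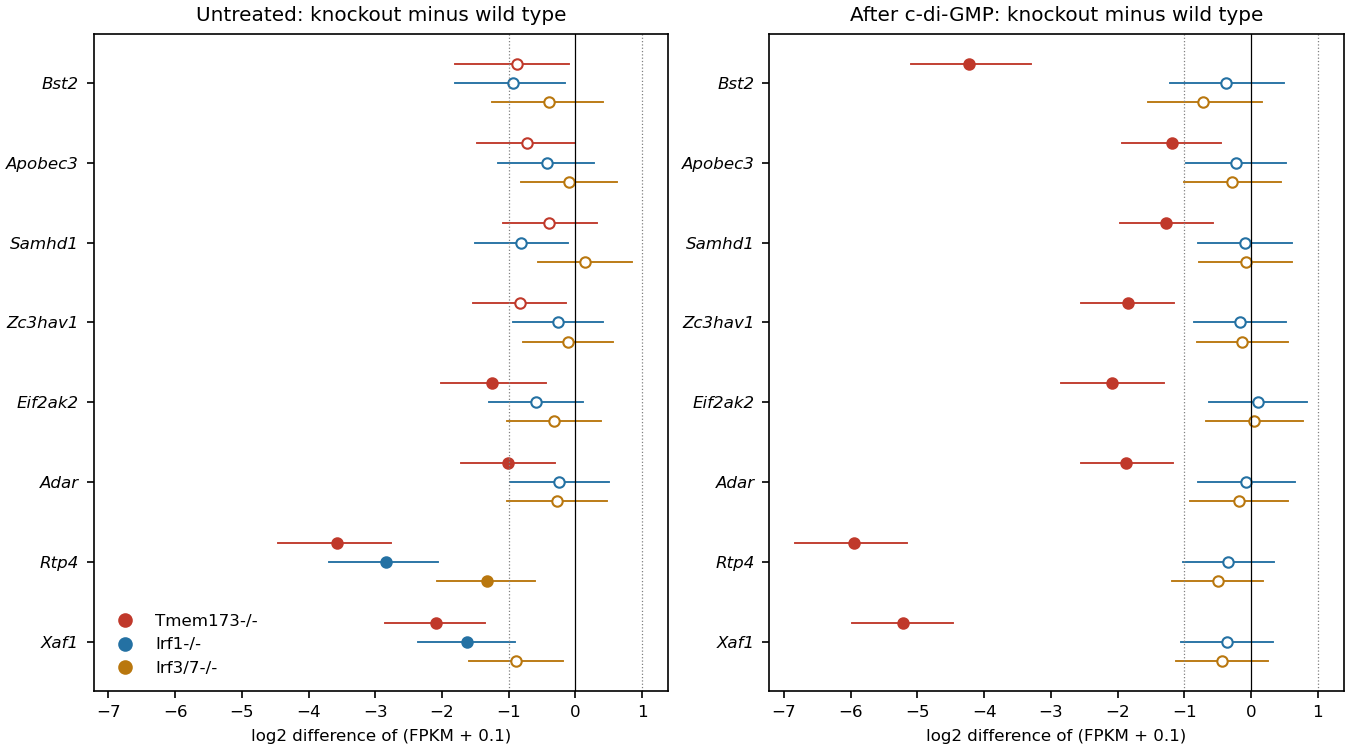
Log2 difference of (FPKM + 0.1) between each knockout and WT BMDCs, untreated (left) and after c-di-GMP (right), for the 8 genes; filled points were called, lines span what the bounds allow and dotted lines mark 2-fold. Rtp4 and Xaf1 lie farthest to the left in all 3 untreated knockouts, and after c-di-GMP only the Tmem173-/- points are called, from -1.19 to -5.95.

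The members differed in order of level as well. In untreated WT BMDCs *Samhd1* had the highest FPKM of the 8, which is a level per length of transcript, and *Bst2* the next at 155 FPKM, with overlapping intervals. *Xaf1*, at 10.9 FPKM, had the lowest. After c-di-GMP *Bst2* stood first in WT, and *Eif2ak2*, at 53.3 FPKM, last. In *Tmem173*-/- BMDCs the order began with *Samhd1*, *Bst2* and *Apobec3* and ended with *Rtp4*, with and without c-di-GMP. Over the 8 conditions, the 28 pairs among the 8 genes had Pearson correlations of log2(FPKM + 0.1) between 0.872 and 0.992, with a median of 0.961. For every gene but *Apobec3*, the 3 treated conditions other than *Tmem173*-/- lay above the rest with separate intervals. *Rtp4* and *Xaf1* also had separate intervals between some untreated levels. The 8 points come from the same libraries for every gene, so the correlations describe a shared pattern and are not independent of one another.

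Of 7382 genes with at least 10 FPKM in some condition, the pattern most like that of *Bst2* was found in *Phf11a* (r = 0.997), *Cd47* and *Trim34a*. For *Xaf1* it was *Rnf114* (r = 0.998), *Herc6* and *Oas3*, and for *Rtp4* it was *Oasl2* (r = 0.997), *Pml* and *Parp14*. *Apobec3* was closest to *Ms4a4c* (r = 0.991), *Nlrc5* and *Parp9*, and *Samhd1* to *Ifi203* (r = 0.994), *Max* and *Mndal*. Genes close to *Zc3hav1* included *Vwa5a* (r = 0.997) and *Traf6*. *Eif2ak2* was closest to *Dusp14* (r = 0.999), *Il2ra* and *Vwa5a*, and *Adar* to *Ssh1* (r = 0.996), *Dusp14* and *Rhof*. Each r is over 8 conditions.

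Most relatives and partners of the 8 genes were not called in WT. Of 29 such genes in the table, 19 could be compared in WT, 3 were called higher and 3 lower, and the median log2 change was 0.08. These are 15.8% in each direction, where 10.5% of all genes tested were called higher and 9.96% lower. Among the kinases that act on eIF2α, *Eif2ak2* rose while *Eif2ak1* was at 24.3 and 22.3 FPKM, *Eif2ak3* at 9.66 and 7.91 FPKM and *Eif2ak4* at 7.68 and 8.13 FPKM in untreated and treated WT BMDCs, with no call in any of the 11 comparisons. *Ppp1r15a* (GADD34), which directs the dephosphorylation of eIF2α, rose from 12.2 to 47.7 FPKM. The PKR activator *Prkra*, at 12.2 and 12.1 FPKM, and the PKR inhibitor *Dnajc3*, at 27.9 and 20.2 FPKM, were not called in any comparison.

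Among the editing enzymes, *Apobec1*, which edits cytidine to uridine in RNA, rose from 6.24 to 22.5 FPKM in WT. It also rose in *Irf1*-/- BMDCs, from 4.46 to 15.3 FPKM, and in labelled *Irf3/7*-/- BMDCs, from 6.16 to 24.8 FPKM. It was at 9.9 and 9.24 FPKM in *Tmem173*-/- BMDCs. *Adarb1*, which encodes the editing enzyme ADAR2, was at 1.34 FPKM or less in all conditions. It was called higher in treated *Irf1*-/- than in treated WT BMDCs, at 1.34 and 0.383 FPKM, and than in labelled *Irf3/7*-/- BMDCs, at 0.352 FPKM. *Adarb2* and *Apobec2* were below 0.1 FPKM in all of them. The receptor transporter genes *Rtp1* and *Rtp2* were listed at 0 throughout, and *Rtp3* was at 0.341 FPKM or less, so *Rtp4* was the member of that family with a measurable level.

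*Trim25*, a ubiquitin ligase that works with ZAP, rose from 26 to 121 FPKM in WT, whereas the ZAP cofactor *Khnyn* was at 13.1 and 19.8 FPKM and was not called. *Zc3hav1l*, a relative of *Zc3hav1*, was at 1.26 FPKM or less. *Cdk1* and *Ccna2*, a kinase and a cyclin known to act on SAMHD1 in dividing cells, fell from 35.2 to 11.4 FPKM and from 45.7 to 12 FPKM in WT. *Rrm2*, a subunit of the enzyme that makes the deoxynucleotides SAMHD1 degrades, fell from 68.5 to 21.7 FPKM. *Cdk1* and *Ccna2* were also called lower within *Irf1*-/- (log2 changes -1.37 and -1.69) and labelled *Irf3/7*-/- BMDCs (-1.25 and -1.40). *Rrm2* was called lower within *Irf1*-/- (-1.63) and not within labelled *Irf3/7*-/- BMDCs (-0.77). In *Tmem173*-/- BMDCs *Cdk1* was at 44.6 and 38.7 FPKM. Of the 29 genes, 19 could be compared there and none was called, where 0.046% of all genes tested were called higher. *Xiap*, the partner of XAF1, was at 15.6 and 20.5 FPKM in WT and was not called in any comparison.

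The 8 genes were also set beside 30 interferon-induced antiviral genes of other families, for which 29 were called higher in WT with a median log2 change of 3.12. The largest changes were those of *Rsad2* (viperin), from 3.99 to 1245 FPKM, and *Oasl1*, from 8.92 to 911 FPKM. Among the smallest was that of *Ifi35*, from 57.1 to 129 FPKM. None of the 30 was called in *Tmem173*-/- BMDCs, in which 24 could be compared, and 29 and 28 were called higher in *Irf1*-/- and labelled *Irf3/7*-/- BMDCs. Against treated WT BMDCs, 29 of the 30 were lower in *Tmem173*-/-, 5 in *Irf1*-/- and 4 in labelled *Irf3/7*-/- BMDCs. The 8 restriction and editing factors had 8, 0 and 0, and of all genes tested 13.5%, 4.91% and 2.69% were called lower. A set of 8 genes is too small to set 0 apart from the low shares of the 30. Untreated, 26 of the 30 were lower in *Tmem173*-/-, 19 in *Irf1*-/- and 10 in *Irf3/7*-/- than in WT BMDCs. The shares of all genes tested were 5.95%, 3.52% and 0.863%. The 2 sets were described side by side and their difference was not tested.

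**Figure D4:**
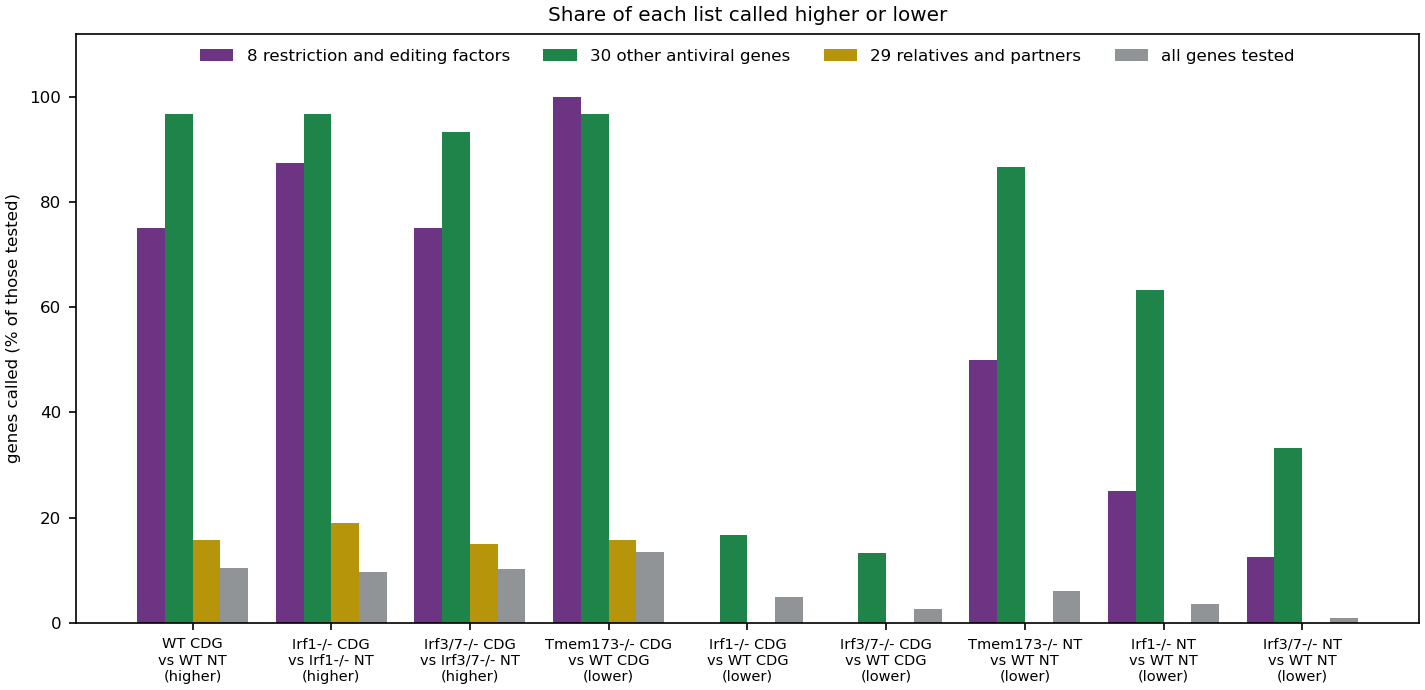
Share of genes called (percent of those tested) in 9 comparisons for the 8 restriction and editing factors, 30 other antiviral genes, 29 relatives and partners, and all genes tested; the direction counted stands in brackets under each comparison. The 8 factors reach 100% lower in treated Tmem173-/- against treated WT and 0% in the other treated knockouts, and the relatives and partners stay at 19% or less.

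Of 9 genes of type I interferon signalling, 4 were called higher in WT, 5 in *Irf1*-/- and 2 in labelled *Irf3/7*-/- BMDCs. *Ifnb1* (interferon β) was listed at 0 in untreated WT and was at 2.93 FPKM after c-di-GMP, at 3.53 FPKM in treated *Irf1*-/- and at 22.6 FPKM in labelled *Irf3/7*-/- BMDCs. *Ifna4* was at 3.53, 9.37 and 0.0484 FPKM in the same 3 conditions. Against treated WT, *Ifnb1* was called higher in labelled *Irf3/7*-/- and not called in *Irf1*-/- BMDCs, while *Ifna4* was called lower in the former and higher in the latter. *Stat2* rose from 42.4 to 155 FPKM in WT. The receptor subunit *Ifnar1* and the kinase *Jak1* were not called in any comparison. Of 10 housekeeping genes, none was called in WT, with a median log2 change of -0.31. One of them, *Gusb*, was called in other comparisons. It was lower with c-di-GMP within labelled *Irf3/7*-/- BMDCs, at 95.9 and 47.1 FPKM. It was higher in treated *Tmem173*-/- than in treated WT BMDCs, at 123 and 57.1 FPKM.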

How the data were processed

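RNA-seq libraries of BMDCs were made with a stranded mRNA kit. The authors computed FPKM with Cuffdiff, combining 2 samples per condition, and deposited FPKM, interval bounds and a status for 23356 genes. The labels give Cuffdiff 1.06 and mm9. The loci overlapped the GRCm38 (GENCODE M21) gene of the same name for 21454 of 21681 genes (99%), so positions are given as GRCm38. A stranded setting is stated for the SeqMonk analysis of the paper. The aligner, the annotation and the strand setting of the Cuffdiff run are not given in the sources used here, so reads of overlapping genes cannot be told apart. A set of 4 columns of 1 further knockout matched no listed sample and was not used. The treated *Tmem173*-/- column was taken as the only column of that knockout that names an agent. The labels give 25 µg/ml c-di-GMP, and a legend of the paper gives a higher dose.

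Values were compared as log2(FPKM + 0.1) over the whole table, in 11 comparisons, by the rule stated above. The calling was tested on simulated data with changes of 4-fold or more, in genes of 5 FPKM or more, with noise drawn from the intervals. That simulation did not cover changes near the 2-fold threshold or the spread between replicates. For similar patterns, genes needed 10 FPKM in some condition, and 3 per member were named. All 8 genes, the targeted genes, measured relatives, partners and signalling genes, and the 2 largest and 2 smallest WT changes of the 30 antiviral genes were named; some genes that these rules name are not reported here. The members and lists were chosen with earlier results of these data known. As alternatives, the pseudocount was set to 1 or 0.01 FPKM, and the others were no minimum or a minimum of 5 FPKM, a fold threshold of 1.5 or 4, fold change alone, a z from the intervals (half-width as 1.96 SD, q under 0.05) and median centring. Tables were computed with pandas 2.3.3, numpy 2.4.6 and scipy 1.17.1 under Python 3.11.15, and figures with matplotlib 3.10.9.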

Additional observations from a re-analysis of the deposited data

How the results depend on the processing

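Over the 88 changes of the 8 genes (11 comparisons) and 9 alternatives, 765 of the values kept their direction and side of the threshold, 8 passed it newly and 19 no longer passed it. None turned in sign, but only median centring could have turned one, because the other alternatives leave the sign fixed. Uncalled changes that fell below the minimum of 5 FPKM, such as those of *Rtp4* and *Xaf1* within *Tmem173*-/-, were counted as kept. The tally is therefore not a measure of robustness. With a fold threshold of 4, the number called was 3 within WT, 3 within *Irf1*-/-, 3 within labelled *Irf3/7*-/-, 4 in treated *Tmem173*-/- against treated WT, and 2, 1 and 0 in untreated *Tmem173*-/-, *Irf1*-/- and *Irf3/7*-/- against untreated WT. With a threshold of 1.5, the untreated counts were 7, 4 and 2, and 7 genes were called within WT and 7 within labelled *Irf3/7*-/-. These shifts follow from the thresholds themselves. Shares of all genes called at thresholds of 4 and 1.5 are not given here, so these counts cannot be set against a background. The remaining loss was that of *Adar* in untreated *Tmem173*-/- BMDCs with a pseudocount of 1 FPKM, at -0.97. Median centring moved the columns by -0.033 to 0.025 log2 units and changed no call of the 8 genes. No paired analysis was possible because the deposited columns combine the replicates, and for the same reason no replicate could be left out. The intervals come from Cuffdiff and could not be checked against replicates.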
